A study of Mus musculus with 16 samples.

Results

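Glutathione transferases join glutathione, the main small thiol of the cell, to reactive electrophiles, which can then be exported. They form a soluble family, divided into alpha, mu, pi, omega, theta and other classes, and an unrelated family of membrane proteins called MAPEG, whose members also include enzymes that make prostaglandins and leukotrienes. In macrophages these proteins handle lipid peroxidation products and lipid mediators, and several of their genes are known targets of NRF2, a transcription factor that binds antioxidant response elements when electrophiles accumulate. The 10 genes described here were chosen by their symbols: Gsta3 and Gsta4 of the alpha class, Gstm1 and Gstm5 of the mu class, Gstp1 of the pi class, Gsto1 of the omega class, Gstt2 of the theta class, and the MAPEG genes Mgst1, Mgst2 and Mgst3. All 10 had a row among the 50508 genes of the counts table.

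RNA was sequenced from mouse bone marrow-derived monocytes of 4 wild-type animals after 24 h of culture, all of it with the macrophage growth factor M-CSF. Cells of each animal were divided between vehicle, PFM037, tumour necrosis factor (TNF) and both agents at once (PFM037+TNF), which gave 4 groups of 4 libraries and 16 libraries in all. The compound PFM037 has a code name alone, and its target, the doses, the nature of the vehicle and the age of the animals were not stated in the labels. Because bulk RNA was measured, fewer cells of a type and less RNA per cell cannot be told apart in any of the results.

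Library totals lay between 9403232 and 21017905 counts, and the shallowest libraries of the TNF group were those of animals 3 and 4, with 11186760 and 9403232 counts. All 14 monocyte and macrophage markers were detected, and their summed level was 24500 to 46000 CPM (counts scaled to a common library total with the TMM factors of edgeR). Most of that sum came from Lyz2, at 27600 CPM on average over all libraries (19000 to 36800). Every other gene of the list averaged 2190 CPM or less, so the sum mainly gives the level of 1 gene. The 14 neutrophil and promyelocyte markers were also present, at 11100 to 27600 CPM in sum. The animals differed in every treatment group, with animals 1 and 2 apart from animals 3 and 4. The 20 interferon-stimulated genes examined summed to 273 to 1100 CPM in animals 1 and 2 and to 2790 to 4000 CPM in animals 3 and 4. A pair of edgeR quasi-likelihood models is therefore given, one with the treatment groups alone, the other with the animal as an additional term. A gene was called when its p-value, adjusted by Benjamini-Hochberg over the 13856 genes tested, was under 0.05.

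With the animal term, 9.59% of all 13856 genes tested were called higher with TNF and 9.84% lower. Among the 9 transferases tested, Gsta3, Mgst1 and Mgst2 were called higher and Mgst3 lower. The upstream sequences of these 4 are shown for that reason. Each is the RefSeq promoter window on GRCm38.p6, written 5′ to 3′ on the strand of the gene, with 250 bases before and 50 after the start of transcription. A pair of motifs was searched on both strands: TGACNNNGC, the core of the antioxidant response element, and TGACTCA, the AP-1 site. Matches are in capitals. The Gsta3 window lies at chr1:21240335-21240634 on the plus strand, the first of both Mgst1 windows at chr6:138140277-138140576 on the plus strand, the Mgst2 window at chr3:51660929-51661228 on the plus strand, and the Mgst3 window at chr1:167393792-167394091 on the minus strand.
Gsta3: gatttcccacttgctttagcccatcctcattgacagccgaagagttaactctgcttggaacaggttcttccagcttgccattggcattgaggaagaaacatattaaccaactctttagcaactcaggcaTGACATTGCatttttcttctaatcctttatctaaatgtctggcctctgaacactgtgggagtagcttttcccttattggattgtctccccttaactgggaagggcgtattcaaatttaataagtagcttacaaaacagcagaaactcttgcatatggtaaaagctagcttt
Mgst1: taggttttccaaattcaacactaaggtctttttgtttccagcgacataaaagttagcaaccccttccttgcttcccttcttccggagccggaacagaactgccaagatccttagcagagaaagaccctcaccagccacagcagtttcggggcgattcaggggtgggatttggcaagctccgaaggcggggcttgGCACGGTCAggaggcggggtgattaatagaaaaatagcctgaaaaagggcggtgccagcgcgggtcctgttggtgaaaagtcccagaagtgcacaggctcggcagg
Mgst2: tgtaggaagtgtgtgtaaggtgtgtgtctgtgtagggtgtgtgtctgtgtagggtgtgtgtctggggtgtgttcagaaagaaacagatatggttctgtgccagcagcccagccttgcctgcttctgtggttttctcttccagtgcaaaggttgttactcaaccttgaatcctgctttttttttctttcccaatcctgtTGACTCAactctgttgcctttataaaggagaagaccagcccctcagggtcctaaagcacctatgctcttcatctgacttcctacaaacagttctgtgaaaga
Mgst3: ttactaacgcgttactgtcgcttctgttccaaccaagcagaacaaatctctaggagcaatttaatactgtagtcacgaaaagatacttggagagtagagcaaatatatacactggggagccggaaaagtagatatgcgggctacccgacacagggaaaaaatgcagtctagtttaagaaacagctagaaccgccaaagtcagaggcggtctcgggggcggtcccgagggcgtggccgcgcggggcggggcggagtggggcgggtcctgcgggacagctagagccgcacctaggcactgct

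The Gsta3 window held the antioxidant core at -121 to -113 from the start, read as TGACATTGC. The first Mgst1 window held it on the opposite strand at -56 to -48, where the printed capitals are the reverse complement of TGACCGTGC. The second Mgst1 window, at chr6:138141337-138141636 and not printed, held neither motif. The Mgst2 window held an AP-1 site at -52 to -46 and no antioxidant core, and the RefSeq start it surrounds lies inside the GENCODE span of the gene. The Mgst3 window held neither string of letters. Windows were given for 8 of the 10 genes, all but Gsta4 and Gstt2, and numbered 10 because Gstm1 and Mgst1 had a second start. The antioxidant core was found in 3 of these genes, the third being Gstm5, and the AP-1 site in 3, the others being Gstm5 and Gstp1. No match of one motif overlapped a match of the other. Among all 32851 windows of the same length, 12.4% held the antioxidant core and 5.2% the AP-1 site. These shares are of windows, while the counts above are of genes. A match is a string of letters, not a site shown to be bound.

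Levels were set side by side between genes per kilobase of exon, using GENCODE M21 exon lengths on GRCm38. Gstm1, a mu-class enzyme on chromosome 3 (108012255 to 108017973, minus strand), was the most abundant of the 10, at 99.9 CPM per kb on average over all libraries and 43.4% of the summed level of these 10 genes. The omega-class gene Gsto1, whose enzyme reduces mixed disulfides of glutathione and dehydroascorbate, stood at 44.6 CPM per kb. Mgst1, which lies in the endoplasmic reticulum and outer mitochondrial membranes, stood at 41.1 CPM per kb. The group means of these last 2 genes exchanged order within their spread. With vehicle Gsto1 was at 46.9 ± 12.4 CPM per kb (SD, n = 4) and Mgst1 at 37.0 ± 5.31, and with TNF they were at 43.3 ± 13.6 and 46.0 ± 4.06. In single libraries the order went with the animal and not with the treatment. Gsto1 lay above Mgst1 in every library of animals 1 and 2 and below it in every library of animals 3 and 4.

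Gstp1, Mgst3 and Mgst2 followed at 19.1, 12.5 and 8.08 CPM per kb. With vehicle, Gstp1 was at 20.1 ± 3.46 CPM per kb and Mgst3 at 15.8 ± 0.64 (SD, n = 4), neighbours whose means lay little more than 1 SD apart. With TNF, Mgst3 and Mgst2 stood at 10.9 ± 1.61 and 9.52 ± 4.31 CPM per kb and did not differ beyond their spread. Gsta3, Gstm5 and Gstt2 formed a low tier at 2.63, 1.33 and 0.919 CPM per kb. With vehicle, Gsta3 and Gstm5 did not differ beyond their spread, at 1.48 ± 0.31 and 1.56 ± 0.26 CPM per kb. Gsta4, whose enzyme prefers the lipid peroxidation product 4-hydroxynonenal, had 0 to 7 counts in each library and 36 counts over all 16, and it failed the filter on low counts. Of the 10 genes, 9 were therefore tested.

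**Figure D1:**
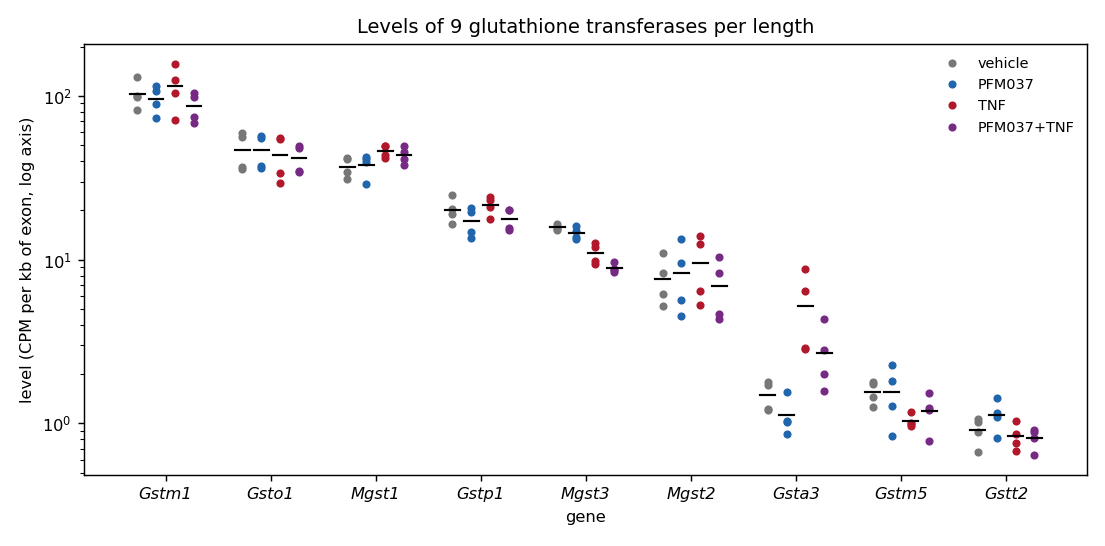
Level of each of the 9 tested transferases in CPM per kb of exon on a log axis. Points are libraries, coloured by treatment group, and each short bar is the mean of 4 animals. Gstm1 is highest in all 4 groups, and Gsta3 moves from about the level of Gstm5 with vehicle to above it with TNF.

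Not every count is certain. Of the 75-base stretches of Gstp1 transcripts, 29.2% also occur in Gstp2 and 15.1% in the pseudogene Gstp-ps, so reads could be split between these copies or dropped. Of those of Gstm1, 11.7% occur in the neighbouring genes or pseudogenes Gstm2-ps1, Gstm3 and Gm8834. Gstm5 overlaps the antisense gene 4933431E20Rik by 178 bases of exon, and the labels do not state whether counting used the strand. The other 7 genes shared no 75-base stretch with another gene.

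TNF raised Gsta3 and lowered Mgst3, and these were the 2 of 9 tested transferases called without an animal term. Gsta3 encodes an alpha-class enzyme, known in mouse for conjugating the reactive epoxide of aflatoxin, and lies on chromosome 1 (21240589 to 21265661, plus strand). Its level in animals 1 to 4 was 7.78, 5.31, 5.27 and 7.42 CPM with vehicle and 27.8, 37.9, 12.6 and 12.4 CPM with TNF. Every TNF library lay above every vehicle library, and animals 1 and 2 reached higher levels than animals 3 and 4. The share of all genes tested whose groups do not overlap is not given here. This separation and the later ones therefore describe single genes and are no result about the transferases. The group means were 6.44 ± 1.34 and 22.7 ± 12.5 CPM (SD, n = 4). The fitted rise was 3.54-fold, a log2 change of 1.82 with SE 0.38 (adjusted p = 0.0163). The animal term gave a log2 change of 1.74 with SE 0.26 (adjusted p = 0.00015). The log2 change in single animals was 1.82, 2.81, 1.23 and 0.74. Without the animal term the call was lost without TNF animal 2 (log2 change 1.46, adjusted p = 0.0592), without vehicle animal 2 (adjusted p = 0.0649) and without vehicle animal 3 (adjusted p = 0.0511). In the model with the animal it held without each animal in turn, at adjusted p between 0.000139 and 0.00374.

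Mgst3, a MAPEG enzyme with glutathione-dependent peroxidase activity in human, lies on the same chromosome (167371966 to 167393841, minus strand). Its level was 18.2, 16.9, 16.6 and 17.4 CPM with vehicle and 13.2, 10.7, 13.9 and 10.3 CPM with TNF. The groups did not overlap, and the vehicle libraries were close together. The means were 17.3 ± 0.70 and 12.0 ± 1.77 CPM, and the gene fell by 0.52 on the log2 scale with SE 0.11 (adjusted p = 0.0206, lower in 4 of 4 animals), which left 0.696 of the vehicle level. Adding the animal gave an adjusted p of 0.0027. Without the animal term the call was lost when vehicle animal 1 or 4 or TNF animal 2 or 4 was left out, at adjusted p of 0.063, 0.0505, 0.0768 and 0.0699. The call with that term held without each animal in turn. A fit to the vehicle and TNF libraries alone called neither gene (adjusted p = 0.0666 for Gsta3 and 0.153 for Mgst3), and testing every gene with a count left Mgst3 uncalled (adjusted p = 0.0889). Among all genes tested, 1.8% were called higher and 0.88% lower with TNF in the model without the animal, which is 249 and 122 genes. With library size alone as the scaling the split over all genes was 218 higher and 189 lower.

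With the animal term, 2 further transferases passed, both of them MAPEG genes and both with small changes. Mgst1, on chromosome 6 (138140316 to 138156755, plus strand), has transferase and peroxidase activity. It was at 62.5, 68.6, 84.5 and 82.5 CPM with vehicle and at 87.8, 83.6, 99.8 and 99.3 CPM with TNF. The groups overlapped, yet each animal was higher with TNF. The log2 change was 0.32 with SE 0.08 (adjusted p = 0.00965), against 0.31 with SE 0.13 (adjusted p = 0.311) without the animal term. It was no longer called without animal 1 (adjusted p = 0.0619).

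Mgst2, on chromosome 3 (51660360 to 51682677, plus strand), encodes an enzyme that can join glutathione to leukotriene A4 and so make leukotriene C4. Its level was 30.7, 40.5, 22.8 and 19.3 CPM with vehicle and 46.2, 51.5, 23.7 and 19.6 CPM with TNF. The rise was visible in animals 1 and 2 and near 0 in the others, with log2 changes of 0.59, 0.35, 0.06 and 0.02. The fitted log2 change was 0.28 with SE 0.09 (adjusted p = 0.0452), against 0.32 with SE 0.40 (adjusted p = 0.816) without the animal term. Without animal 1 or without animal 2 it was no longer called, and the highest adjusted p among these fits was 0.362. The animal term called 9.59% of all genes higher and 9.84% lower, that is 1329 and 1363 genes. Among the 9 transferases tested 3 were called higher and 1 lower. With library size alone beside the animal term, 1064 genes were higher and 2148 lower, and Mgst2 was not called.

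The remaining transferases were not called with TNF. Gstm5, a mu-class gene at low level, had 2.22, 2.30, 1.84 and 1.60 CPM with vehicle and 1.27, 1.28, 1.499 and 1.23 CPM with TNF. These groups did not overlap either, on 11 to 46 counts per library, which describes this gene alone. The log2 change was -0.60 with SE 0.28 (adjusted p = 0.379), or -0.64 with SE 0.25 (adjusted p = 0.0816) with the animal term. Limma-voom with the animal term called it (adjusted p = 0.0422). Gstm1 had a log2 change of 0.16 with SE 0.22, Gstp1 of 0.09 with SE 0.16, Gsto1 of -0.11 with SE 0.24 and Gstt2 of -0.13 with SE 0.21. Gsto1 was lower in 4 of 4 animals, by 0.03 to 0.28 on the log2 scale. The median log2 change of the 9 genes was 0.09, and that of all genes tested was -0.02. Of the 9, 5 lay above 0.

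**Figure D2:**
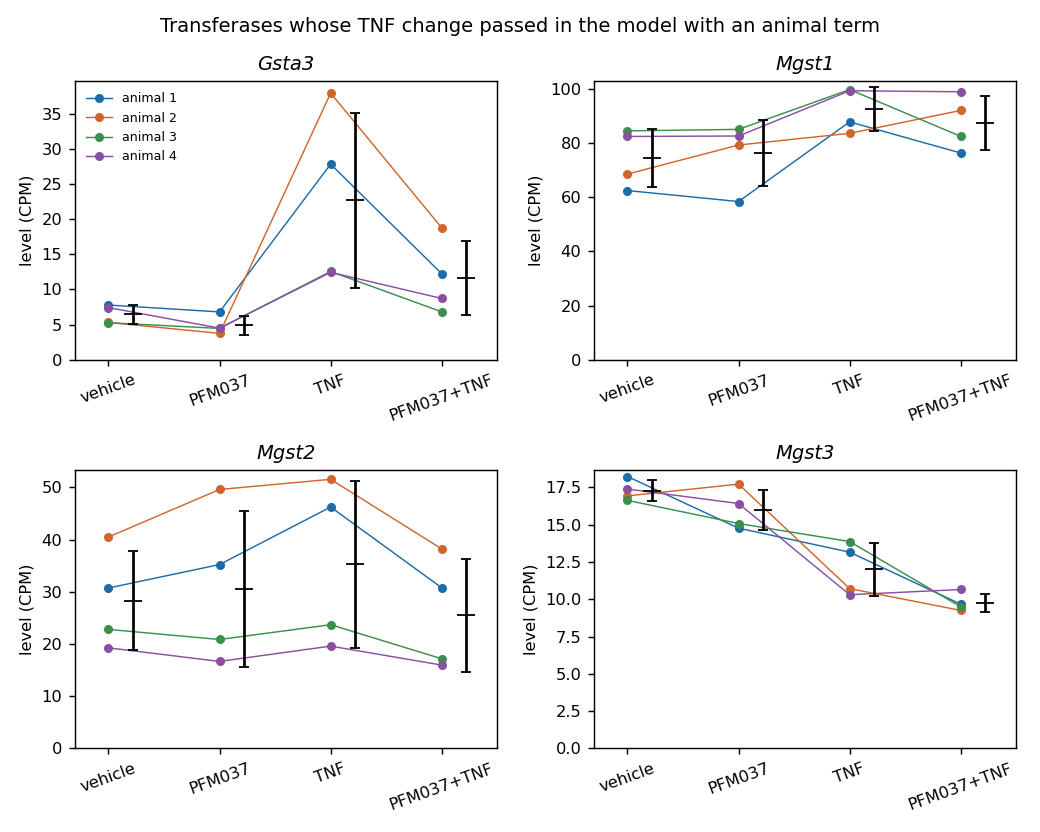
Levels in CPM of the 4 transferases called for TNF against vehicle in the model with an animal term, by treatment group. Lines join the libraries of 1 animal, and the black bars give the mean and SD of 4 animals. Gsta3 rises most in animal 2, from 5.31 to 37.9 CPM, while for Mgst2 animal 2 lies above animal 1, animal 1 above animal 3 and animal 3 above animal 4 in every group.

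Markers of neutrophils and promyelocytes moved in the same comparison. All 14 were tested, their sum was 12600 to 25600 CPM with vehicle and 11100 to 17400 CPM with TNF, and with the animal term 1 was called higher and 5 lower, with a median log2 change of -0.31. None of the 14 was called without the animal term. The 14 monocyte and macrophage markers summed to 27300 to 38100 CPM with vehicle and 37500 to 46000 CPM with TNF, sums that mainly give the level of Lyz2. With the animal term 6 of these 14 were called higher and 5 lower, with a median of 0.10. Without that term 1 was called higher and 1 lower. The part of these shifts in the transferase values was not tested.

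The TNF effect was also measured in the presence of PFM037, by setting PFM037+TNF against PFM037. Mgst3 fell again and was the 1 transferase called without the animal term. It was at 14.8, 17.7, 15.1 and 16.4 CPM with PFM037 and at 9.67, 9.25, 9.49 and 10.7 CPM with PFM037+TNF. Every library of the combination lay below every library of PFM037 alone. The gene fell by 0.71 on the log2 scale with SE 0.11 (adjusted p = 0.00334), and it was called without each of the 16 libraries in turn. Among all genes, 1.54% were called higher and 0.714% lower.

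Gsta3 was at 6.80, 3.75, 4.46 and 4.50 CPM with PFM037 and at 12.2, 18.8, 6.82 and 8.72 CPM with PFM037+TNF. The groups did not overlap, by a margin of 6.80 against 6.82 CPM. The log2 change was 1.25 with SE 0.38 and was not called (adjusted p = 0.122), while the animal term gave 1.22 with SE 0.28 (adjusted p = 0.00541), and DESeq2 without the animal term also called it (adjusted p = 0.0252). With the animal term 10.6% of genes were called higher and 9.76% lower. Mgst1 had a log2 change of 0.21 with SE 0.08 (adjusted p = 0.0828) and Gstt2 of -0.48 with SE 0.20 (adjusted p = 0.0945) in that model, and neither was called. Mgst2 was lower in 4 of 4 animals, with a log2 change of -0.24 and SE 0.09 (adjusted p = 0.0799). This comparison and that of TNF against vehicle use different libraries of the same animals.

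Markers moved here too. Of the 20 interferon-stimulated genes, 17 were called higher and 0 lower with the animal term, with a median log2 change of 0.90. None of the 20 was called without that term, where the median was 0.44. In animals 1 to 4 they summed to 297.1, 273.2, 3254 and 2988 CPM with PFM037. With the combination the sums were 1103, 605.1, 3534 and 3998 CPM. Of the 14 neutrophil and promyelocyte markers, 0 were higher and 3 lower, with a median of -0.16, on sums of 13200 to 27600 and 12700 to 26300 CPM. The 14 monocyte and macrophage markers gave 7 higher and 3 lower, with a median of 0.20, on sums of 24500 to 36000 and 36200 to 43900 CPM. Without the animal term none of the neutrophil and promyelocyte markers was called. In that model 1 monocyte and macrophage marker was called higher and 1 lower. The part of these marker shifts in the transferase values was not tested.

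PFM037 given alone changed no transferase past the threshold in either model. Gsta3 was lower in 4 of 4 animals, from 6.44 ± 1.34 to 4.88 ± 1.33 CPM, a log2 change of -0.40 with SE 0.38. The groups overlapped, and with the animal term the adjusted p was 0.757. Gstp1, the pi-class enzyme, was at 31.8, 38.2, 25.4 and 29.3 CPM with vehicle and at 32.2, 30.2, 22.8 and 20.96 CPM with PFM037. Animal 1 differed little and the other 3 animals were lower, and the log2 change with the animal term was -0.24 with SE 0.08, with an unadjusted p of 0.0126 and an adjusted p of 0.38. Gstm1, Gstm5, Gsto1, Mgst1, Mgst2 and Mgst3 had log2 changes between -0.11 and 0.11 without the animal term, and Gstt2 had 0.31 with SE 0.20 (adjusted p = 1). Without the animal term edgeR called 0 genes of 13856, or 0%, and DESeq2 and limma-voom called none either. At an unadjusted p under 0.05 there were 223 genes, and 0 of the 9 transferases was among them. The animal term left 11 genes called, or 0.0794%, of which 2 were among the 9 eosinophil markers. These 2 were higher with PFM037, and the median of the 9 was 0.28 (log2), on sums of 50.7 to 189 CPM with vehicle and 57.0 to 282 CPM with PFM037. Their part in the transferase values was not tested.

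PFM037 was also compared in the presence of TNF, as PFM037+TNF against TNF. Without the animal term 0 genes were called by edgeR, which is 0%, with 515 genes at an unadjusted p under 0.05, Gsta3 and Mgst3 among them, and DESeq2 called 9 genes and limma-voom 0. The animal term gave 188 called genes, or 1.36%, and 2 transferases, Gstm1 and Mgst2, were among the lower ones. Gstm1 was at 185.3, 232.0, 153.6 and 104.4 CPM with TNF and at 152.6, 145.9, 109.5 and 101.1 CPM with the combination. All 4 animals were lower with PFM037, animal 4 by the least. The log2 change was -0.38 with SE 0.09 (adjusted p = 0.0471), against -0.41 with SE 0.23 (adjusted p = 1) without the animal term.

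Mgst2 was at 46.2, 51.5, 23.7 and 19.6 CPM with TNF and at 30.8, 38.2, 17.2 and 16.0 CPM with the combination, again lower in each animal. The groups overlapped. With the animal term the log2 change was -0.46 with SE 0.09 (adjusted p = 0.0334), and without it -0.47 with SE 0.40 (adjusted p = 1). Both calls were lost without any 1 of the animals, at adjusted p of 0.0881 to 0.212 for Gstm1 and 0.0737 to 0.137 for Mgst2.

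Gsta3, which TNF had raised, was at 27.8, 37.9, 12.6 and 12.4 CPM with TNF and at 12.2, 18.8, 6.82 and 8.72 CPM with the combination. It was lower in 4 of 4 animals, by 1.18, 1.01, 0.87 and 0.51 on the log2 scale, and remained above its vehicle mean. The difference did not pass: the log2 change was -0.97 with SE 0.37 (adjusted p = 1), and with the animal term -0.94 with SE 0.24 (adjusted p = 0.0668). Limma-voom with the animal term called it (adjusted p = 0.039), as did edgeR without animal 2 (adjusted p = 0.0464).

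Gstp1 was likewise lower in 4 of 4 animals without passing, with a log2 change of -0.28 and SE 0.09 with the animal term (adjusted p = 0.118). Mgst3 was lower in 3 of 4 animals, with a log2 change of -0.30 and SE 0.11 (adjusted p = 0.203 with the animal term). Of the 9 genes, 8 lay below 0 and their median log2 change was -0.28, against 0.01 over all genes tested. All of these values share the TNF libraries with the comparison of TNF against vehicle, so a high TNF library raises one and lowers the other. In this comparison 3 of the 9 eosinophil markers tested were called higher with the animal term, with a median of 0.38, on sums of 49.8 to 262 CPM with TNF and 55.3 to 419 CPM with the combination. Of the 14 neutrophil and promyelocyte markers, 2 were called higher and 0 lower, with a median of 0.26, on sums of 11100 to 17400 CPM with TNF and 12700 to 26300 CPM with the combination. Their part in the transferase values was not tested.

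**Figure D3:**
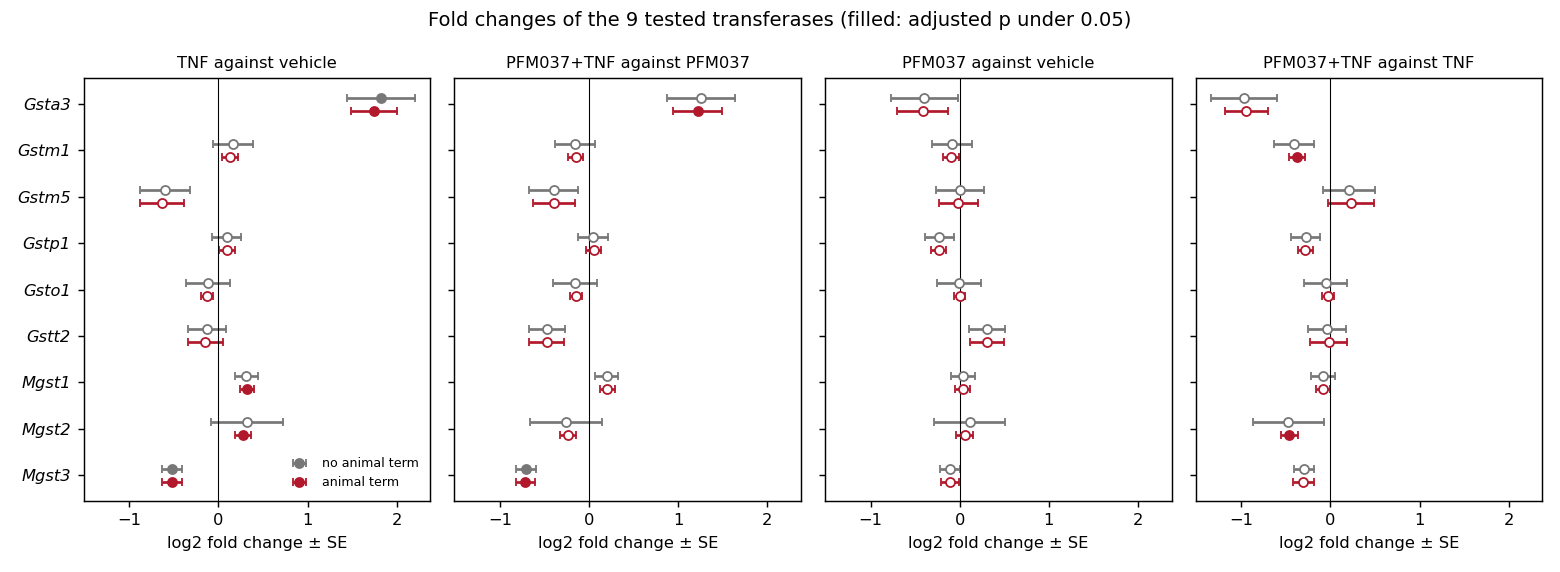
Log2 fold change of the 9 tested transferases in 4 comparisons, with SE, from edgeR without an animal term (grey) and with one (red). Filled points have an adjusted p under 0.05. Gsta3 and Mgst3 are filled in both models for TNF against vehicle, and Gstm1 and Mgst2 are filled only with the animal term for PFM037+TNF against TNF.

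Whether PFM037 altered the TNF effect was tested directly as an interaction. No gene passed in either model, which is 0% of genes with and 0% without the animal term, with 91 genes at an unadjusted p under 0.05 without it and 383 with it, and neither DESeq2 nor limma-voom called any. Mgst2 came nearest among the transferases. TNF went with higher Mgst2 in 4 of 4 animals without PFM037 and with lower Mgst2 in 4 of 4 animals with it. The interaction was -0.78, -0.72, -0.33 and -0.09 on the log2 scale in the 4 animals, and the fitted value was -0.51 with SE 0.13 with the animal term, at an unadjusted p of 0.00114 and an adjusted p of 1. For Gsta3 it was -0.53 with SE 0.38 and for Mgst3 -0.20 with SE 0.15, both at an adjusted p of 1.

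Among the transferases, the share of variation that went with the treatment and with the animal differed widely. The sum of squares of log2 CPM over the 16 libraries was divided into these parts and a remainder, as a description. For Mgst3 the treatment group held 89.1% and the animal 0.299%, and the mean of each animal over its 4 libraries was 13.95, 13.65, 13.76 and 13.68 CPM. For Gsta3 the group held 72.1%. At the other end, the animal held 91.8% for Gsto1 and 89.2% for Mgst2.

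Gsto1 averaged 108.8, 111.3, 69.6 and 71.3 CPM in animals 1 to 4, with every library of animals 1 and 2 above every library of animals 3 and 4. Mgst2 averaged 35.7, 45.0, 21.1 and 17.9 CPM. Gstm1 followed the same order of pairs at 160.5, 184.8, 134.9 and 108.3 CPM, with 72.8% of its variation in the animal, and so did Gstp1 at 33.0, 33.8, 26.0 and 25.5 CPM with 58.3%. Mgst1 had the reverse order, at 71.3, 80.9, 88.0 and 90.8 CPM. Gstm5 and Gstt2 left 36.5% and 55.1% in the remainder, on at most 53 and 107 counts per library.

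The same animals differed in markers of other states and cell types. All 9 eosinophil markers were tested, and they summed to 189 to 419 CPM in the libraries of animals 1 and 2 and to 49.8 to 67.2 CPM in those of animals 3 and 4. The mast cell and basophil list summed to 268 to 478 and to 149 to 189 CPM, with 8 of its 12 genes tested and Mcpt4, a mast cell protease, at 0 counts in every library. The 14 neutrophil and promyelocyte markers summed to 15300 to 27600 and to 11100 to 14600 CPM. The dendritic cell list, with 9 of its 10 genes tested, had the reverse order, as Mgst1 did, with sums of 141 to 298 CPM in animals 1 and 2 and 335 to 409 CPM in animals 3 and 4. Most of that sum came from Bst2, at 202 CPM on average over all libraries (75.6 to 335). Every other gene of the list averaged 30.8 CPM or less, so the sum mainly gives the level of 1 gene. Because these pairs of animals were seen in the data and not in the labels, the difference was given no test, and the part of these cell types in it was not tested.

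**Figure D4:**
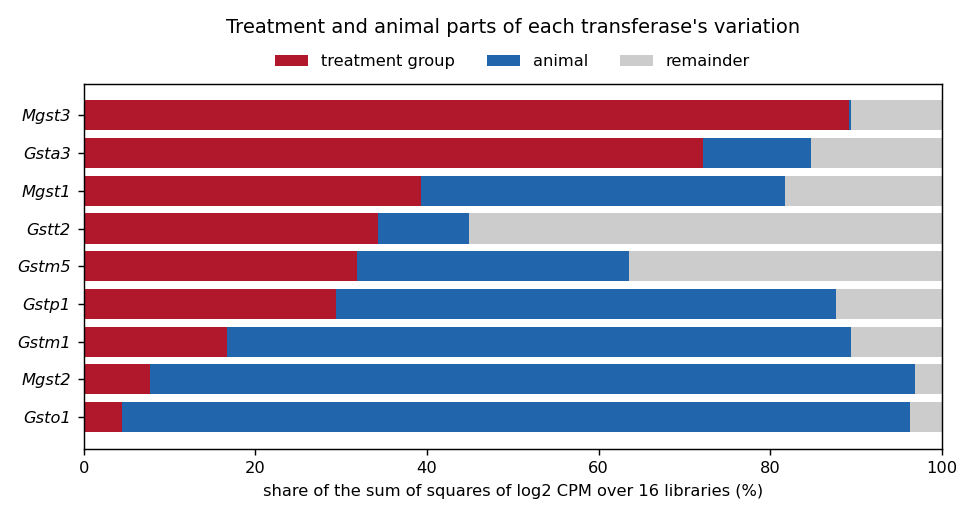
Share of the sum of squares of log2 CPM over 16 libraries that goes with the treatment group, with the animal and with neither, for each of the 9 tested transferases. Mgst3 and Gsta3 lie at the treatment end, with 89.1% and 72.1%, and Mgst2 and Gsto1 at the animal end, with 89.2% and 91.8%.

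**Figure D5:**
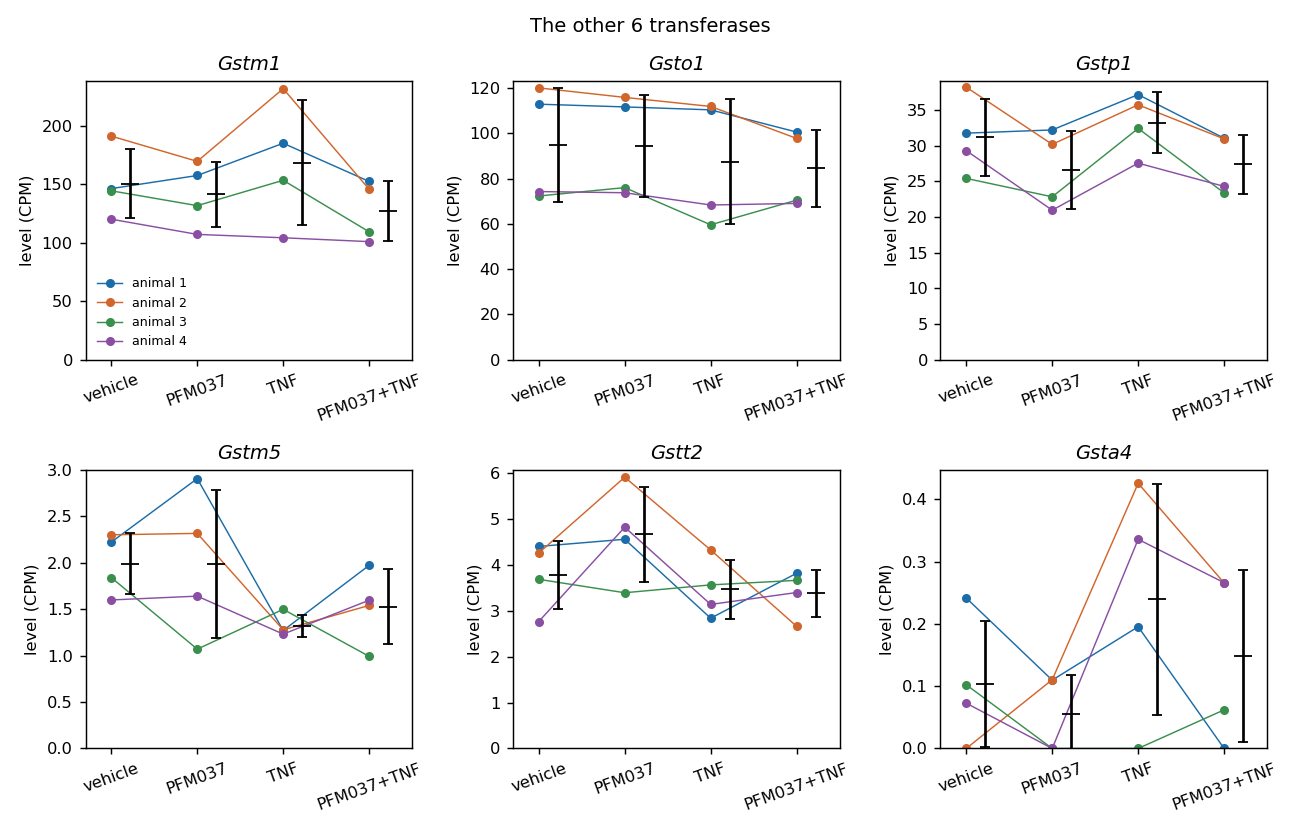
Levels in CPM of the other 6 transferases by treatment group, with lines joining the libraries of 1 animal and black bars for the mean and SD of 4 animals. Bars that would reach below 0 end at the axis. In Gsto1 the lines of animals 1 and 2 stay at 97.7 CPM or above and those of animals 3 and 4 at 76.0 CPM or below, and Gsta4 reaches at most 0.426 CPM.

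The genes whose pattern was most like that of each responding transferase were sought over the 16 libraries, after the mean of each animal had been removed, among the 9794 genes with a mean of at least 5 CPM. The coefficients are descriptions over libraries that share animals and groups. These genes were picked for likeness to transferases called for TNF in the same libraries. Their own TNF changes and p-values are partly set by that choice and are no separate evidence. For Gsta3 they were Ptgr1, a prostaglandin reductase, with Pearson r = 0.988, Myadm, a membrane protein of myeloid cells, with r = 0.983, and Tarm1, an activating receptor of myeloid cells, with r = 0.982. Ptgr1 had a log2 change with TNF of 1.02 with SE 0.16 in the model with the animal term (adjusted p = 0.000209, and 0.114 without that term), and Tarm1 of 1.57 with SE 0.21 (adjusted p = 5.27e-05, and 0.0256 without it).

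For Mgst1 the nearest were 2310001H17Rik (r = 0.963), Gmfg, a regulator of branched actin (r = 0.949), and AW112010 (r = 0.925). For Mgst3 they were 2310036O22Rik (r = 0.953), Acss1, a mitochondrial acetyl-CoA synthetase (r = 0.948), and H2afj, a histone H2A variant (r = 0.947). Acss1 had a log2 change with TNF of -0.91 with SE 0.09 with the animal term (adjusted p = 2.28e-06, and 0.291 without it). Mgst2 had looser neighbours, in Ahr, the aryl hydrocarbon receptor (r = 0.824), Uqcrfs1, a subunit of respiratory complex III (r = 0.794), and Gpr137 (r = 0.779), and none of these 3 was called with TNF in either model.

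The rest of the soluble family mostly failed the filter on low counts. Of 16 further soluble and kappa transferase genes in the table, 6 passed the filter, and Gsta1 had 0 counts in every library. Hpgds, the sigma-class transferase that makes prostaglandin D2, fell from 45.9 to 22.6 CPM with TNF, a log2 change of -1.01 with SE 0.14 with the animal term (adjusted p = 8.22e-05), and was not called without it (adjusted p = 0.36). Gstm2 rose by 1.02 with SE 0.26 with the animal term (adjusted p = 0.0107), and was not called without it (adjusted p = 0.179). Gstk1, Gstm4, Gstt3 and Gstz1 were called in neither model, and the median of the 6 was -0.28 with the animal term. Gsta2, Gstm3, Gstm6, Gstm7, Gstp2, Gstp3, Gsto2, Gstt1 and Gstt4 had at most 20 counts in any library.

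Of the 3 other MAPEG genes, Ptges, which makes prostaglandin E2, rose 6.59-fold with TNF, by 2.72 on the log2 scale with SE 0.20 (adjusted p = 4.13e-06). Alox5ap, the protein that presents arachidonic acid to 5-lipoxygenase, had a log2 change of -0.01 with SE 0.08 (adjusted p = 0.971). Ltc4s, the dedicated leukotriene C4 synthase, had at most 13 counts in a library and was not tested. Among the MAPEG genes tested, Ptges, Mgst1 and Mgst2 were thus called higher with TNF, Mgst3 lower and Alox5ap in neither direction in the model with the animal term.

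Genes that supply glutathione were mostly higher with TNF. All 15 genes of its synthesis and reduction were tested, 1 was called higher and 0 lower without the animal term, and 10 higher and 0 lower with it, with a median log2 change of 0.29. For all genes tested the median with that term was -0.02, and 9.59% were called higher and 9.84% lower, against 1.8% and 0.88% without it. Slc7a11, the cystine carrier, rose by 2.14 with SE 0.31 (adjusted p = 0.0013). Gsr, glutathione reductase, rose by 0.74 with SE 0.08 and Gclm, a subunit of the rate-limiting synthesis enzyme, by 0.92 with SE 0.13 with the animal term (adjusted p = 7.42e-06 and 9.55e-05), and neither was called without it (adjusted p = 0.0503 and 0.172).

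Of 15 glutathione peroxidase and thioredoxin system genes tested, 4 were higher and 1 lower without the animal term, and 6 higher and 1 lower with it, with a median of 0.07. Prdx6, a peroxiredoxin that uses glutathione, rose by 1.07 with SE 0.17 (adjusted p = 0.00224), and Srxn1, which repairs peroxiredoxins, by 1.03 with SE 0.22 (adjusted p = 0.0189). Txnrd1, thioredoxin reductase, passed with the animal term alone, at 0.90 with SE 0.12 (adjusted p = 5.53e-05). Of 24 other NRF2 targets and regulators, 4 were higher without and 11 with the animal term, and 0 were lower in either, with a median of 0.18 with that term. These counts stand beside 1.8% of all genes called higher and 0.88% lower without the animal term, and 9.59% and 9.84% with it. The examples were Maff, a small MAF partner of NRF2, at 1.205 with SE 0.14 (adjusted p = 0.000168), and Fth1, the ferritin heavy chain, at 0.82 with SE 0.14 (adjusted p = 0.00336). Nfe2l2, which encodes NRF2 itself, rose by 0.68 with SE 0.08 with the animal term (adjusted p = 1.17e-05, and 0.226 without it).

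Of 15 genes of conjugate export and the mercapturate pathway, 2 were higher and 1 lower with TNF in both models, with a median of -0.05 with the animal term. With 9.59% of all genes called higher and 9.84% lower in that model, these counts are near the background and are no result about the list, so single genes are described. Abcc1, which exports glutathione conjugates and leukotriene C4, rose from 392.7 ± 49.8 to 795.3 ± 238.1 CPM, by 1.02 on the log2 scale with SE 0.21 (adjusted p = 0.0148). Abcc5 rose by 0.96 with SE 0.13, and Abcc3 fell by 0.90 with SE 0.12 (adjusted p = 0.000695 for each). Of 9 glyoxalase and related genes, none was called without the animal term, and with it Esd, which hydrolyses S-formylglutathione, was higher at 0.88 with SE 0.10 (adjusted p = 1.07e-05) and Glo1, glyoxalase 1, was lower at -0.35 with SE 0.09 (adjusted p = 0.0114).

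In PFM037+TNF against TNF with the animal term, 3 of the peroxidase and thioredoxin genes, 2 of the NRF2 list and 3 of the export list were called lower and none of these lists held a gene called higher. The lists had 15, 24 and 15 genes tested, and over all 13856 genes 114 were called lower and 74 higher in that model, 1.36% in all. Their medians were -0.21, -0.24 and -0.09, against 0.01 for all genes. Prdx6 fell by 0.46 with SE 0.10 (adjusted p = 0.0456) and Abcc1 by 0.36 with SE 0.08 (adjusted p = 0.0471). Slc7a11, Gsr and Gclm had log2 changes of -0.35, -0.18 and -0.40 that did not pass, and 0 of the 15 synthesis and reduction genes was called. Without the animal term edgeR called no gene of the whole table in that comparison, so none of the 7 lists could hold a gene called by that model. The 9 genes that DESeq2 called there were not matched to the lists.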

How the data were processed

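The deposited table holds raw read counts per gene, whole numbers that the authors did not normalize, for 16 libraries, and its columns were matched to samples through the numbers in the sample titles. Per the labels' protocols, 500 ng of RNA entered a stranded poly(A) TruSeq kit, read singly over 75 bases. Per the submitters' processing notes the tools were STAR 2.5.3a, featureCounts and limma with mm10 (GRCm38), with order, settings, annotation release and strand setting not given in the sources used here. No row lacked a gene name.

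Counts were tested in R 4.3.3 with the quasi-likelihood F-test of edgeR 4.0.16, TMM scaling and filterByExpr (minimum count 10, minimum total 15), two-sided, in 5 comparisons, with p-values adjusted over all 13856 genes kept. The main model held the 4 groups, and the alternative added the animal. The labels name the animal of each library, and every animal occurs once per group, which pairs the libraries. In 24 pairs of libraries from 1 animal, r between their deviations from group means was 0.497 to 0.777. In 72 pairs from different animals it was -0.677 to 0.609, so the ranges overlapped. Of 48 best partners, 45 came from the same animal. Alternatives were DESeq2 1.42.0, limma-voom (limma 3.58.1), other scalings and filters, fits to the compared groups alone, and left-out libraries or animals. The procedure was tested on simulated data. No pair of libraries in a group agreed within sampling noise (chi-square per degree of freedom of at least 7.01). Levels are CPM with TMM factors, mean ± SD over 4 animals. Exon lengths and shared 75-base stretches came from GENCODE M21, and promoter windows from RefSeq. The 10 genes, the pathway lists and the marker lists were chosen with earlier results of these data known. Genes outside the 10 were named as the 3 with the smallest adjusted p of each pathway list for TNF with the animal term, all genes of the transferase and MAPEG lists, and the 3 most like each called gene. Single marker genes were named only to qualify the sum of a marker list.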

Additional observations from a re-analysis of the deposited data

Results flagged for a closer look

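Mgst2 was singled out because the TNF effect had opposite signs without and with PFM037 in 4 of 4 animals. The interaction was -0.58 on the log2 scale with SE 0.57 without the animal term and -0.51 with SE 0.13 with it, and its adjusted p was 1 in both models. It stayed below 0 without each library in turn, from -0.85 to -0.25. No library lay apart from the others of its group for any of the 10 genes, in 40 groups of 4 examined.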

How the results depend on the processing

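Pairing by animal changed several counts. Where 2 transferases were called for TNF against vehicle, the replicate block called 4, limma-voom with the block 5, no filter 1 and a fit to the compared groups alone 0, and leaving out single libraries gave 0 to 2 (with the block, single animals, 2 to 4). The calls over all genes moved too. Of 13856 genes, 249 higher and 122 lower became 1329 and 1363 with the block and 1411 and 1511 with limma-voom and the block. They were 212 and 71 of 30556 without a filter, and 88 and 22 of 13318 in the compared groups alone. For PFM037+TNF against TNF 0 became 2 with the block, 1 with the block and library size alone and 3 with the block in limma-voom (0 to 1 without single animals). Over all 13856 genes 0 became 74 higher and 114 lower with the block. The block gave 117 and 87 with library size alone and 94 and 146 in limma-voom. For PFM037+TNF against PFM037 1 became 2 with the block, with DESeq2 and with the block in limma-voom, and 4, with Gsto1 and Mgst2 added, with the block and library size alone (2 without single animals, 1 without single libraries). Over all 13856 genes, 213 higher and 99 lower became 1475 and 1353 with the block and 372 and 211 with DESeq2. The block gave 1506 and 1515 in limma-voom and 1057 and 2275 with library size alone. No transferase was called for PFM037 against vehicle or the interaction in any fit, and the block changed no call beyond those named. The filter of 5 CPM in 4 libraries left out Gstm5 and Gstt2, and the interaction needs all 4 groups.

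Other settings turned the sign of changes near 0, none of them called, and the cause was not tested. For PFM037 against vehicle Gstm5 went from 0.0063 to -0.014 with the block, -0.045 with limma-voom and -0.0059 with both, and Gsto1 from -0.0087 to 0.030 with library size alone, 0.00022 with limma-voom and 0.035 with the block and library size. With the block and library size Gsto1 reached 0.0025 and Gstt2 0.0064 for PFM037+TNF against TNF, and Gstp1 -0.017 for PFM037+TNF against PFM037 (-0.027 with library size alone).

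Leaving out single libraries or animals moved these uncalled log2 changes across 0. For TNF against vehicle the range was -0.028 to 0.35 for Gstm1, -0.25 to 0.043 for Gsto1 and -0.26 to 0.043 for Gstt2. For PFM037 against vehicle it was -0.19 to 0.047 for Gstm1, -0.24 to 0.19 for Gstm5, -0.13 to 0.12 for Gsto1, -0.040 to 0.14 for Mgst1 and -0.23 to 0.33 for Mgst2. For PFM037+TNF against TNF it was -0.20 to 0.086 for Gsto1 and -0.20 to 0.22 for Gstt2. For PFM037+TNF against PFM037 it was -0.066 to 0.14 for Gstp1 and -0.52 to 0.059 for Mgst2. For the interaction it was -0.20 to 0.095 for Gsto1 and -0.16 to 0.053 for Gstp1.

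The genome-wide count for TNF against vehicle was 371 without the block and 2692 with the block, 641 with DESeq2, and 88 higher and 22 lower in the compared groups alone. Gsta4 and Gstm5, on few counts, are limited by depth.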

Other observations

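Summed over the 10 transferases, the level per length was 203.0 to 278.4 CPM per kb with vehicle, 186.8 to 265.2 with PFM037, 191.3 to 312.1 with TNF and 181.8 to 238.2 with PFM037+TNF. In animals 1 to 4 the sum was 280.6, 312.1, 228.2 and 191.3 CPM per kb with TNF and 233.6, 238.2, 181.8 and 185.9 with the combination, lower in each animal with PFM037. Gstm1 alone made up 43.4% of this level over all libraries.

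Several of the transferases lie beside relatives, some of which were hardly read. On GRCm38, Gstm1 and Gstm5 share a stretch of chromosome 3 with Gstm2, Gstm3, Gstm4, Gstm6 and Gstm7, where total counts over 16 libraries were 39324 for Gstm1, 2821 for Gstm4, 474 for Gstm2, 461 for Gstm5, 54 for Gstm7, 13 for Gstm3 and 4 for Gstm6. On chromosome 10, Gstt2 had 1018 counts in all, its neighbours Gstt3 442, Gstt1 70 and Gstt4 1. On chromosome 19, Gstp1 had 7841 counts, Gstp3 116 and Gstp2 44, and the 2 omega genes 24425 for Gsto1 and 45 for Gsto2. These totals are not corrected for length, and reads of near-identical copies can be counted for either.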
